A study of Homo sapiens with 54 samples.

Results

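The 6 genes described here are the nuclear receptors NR4A1, NR4A2 and NR4A3 and the zinc finger transcription factors EGR1, EGR2 and EGR3, chosen by symbol and family with earlier results of these data known, and each found under 1 identifier among the 58735 genes of the bulk RNA table (ENSG00000123358, ENSG00000153234, ENSG00000119508, ENSG00000120738, ENSG00000122877 and ENSG00000179388). Their RNA was followed through 32 bulk libraries in 11 groups and 3 single-cell libraries, out of 54 samples in the series. All samples came from H1, an established human embryonic stem cell line, and all are labelled as macrophages. The study set cells made in a 3D porous microscaffold beside cells made in 2D culture. The 3D groups were an E. coli group (2 libraries, with no day, dose or exposure time in the labels), groups called SP14 and SP6A (2 libraries each, entered in the labels as time points and not explained there), and an FBS group at each of days 16, 19 and 23 (3 libraries each). FBS is the usual abbreviation of fetal bovine serum, and the labels give only the letters. The other 3D groups carry no such tag and are called 3D culture without FBS: day 12 (4 libraries) and days 16, 19 and 23 (3 libraries each). The 2D group was taken at day 12 (4 libraries). The single-cell libraries came from 3D culture at days 7, 9 and 12, with 1 library a day. The labels give no medium, and they do not say whether libraries of a group came from separate cultures, so p-values measure only the spread between these libraries, which may be technical.

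In the RefSeq annotation of build GRCh38.p14 all 6 are protein-coding genes, each on a chromosome of its own: NR4A2 at chr2:156324437-156332721, EGR1 at chr5:138465479-138469303, EGR3 at chr8:22687659-22693480, NR4A3 at chr9:99821885-99866891, EGR2 at chr10:62811996-62819167 and NR4A1 at chr12:52022832-52059503. The antisense RNA NR4A1AS (chr12:52058750-52059500) lies within the span of NR4A1, and the sources used here do not say whether counting used strand, so reads of that overlap cannot be told apart.

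The 6 genes belong to the immediate early genes, which cells switch on within minutes of a stimulus from factors already present, without new protein synthesis, and mostly switch off again soon after. NR4A proteins bind DNA at the NBRE element and lack the usual ligand-binding cavity of nuclear receptors, so their amount largely sets their activity, while EGR proteins bind GC-rich sites and are held back by the corepressors NAB1 and NAB2, of which NAB2 is itself an EGR target. In macrophages, members of both families rise after Toll-like receptor ligands and growth factors, NR4A1 is needed in mice for a subset of circulating monocytes, and EGR1 and EGR2 are linked to the monocyte and macrophage lineage. Serum response factor acts on EGR promoters at CArG boxes, and CREB acts on NR4A promoters at cyclic AMP response elements.

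Promoters were searched over 250 bases before and 50 after each annotated start. The motifs searched on both strands were the CArG box, the full cyclic AMP response element TGACGTCA, its core TGACG (which lies inside the full element), the EGR site GCGTGGGCG and the NBRE AAAGGTCA. The 7 windows searched were those of EGR1, EGR2, NR4A1 and NR4A3. NR4A2 had no entry, and EGR3 was left out of the search. Of the 7 windows, 3 held any of the motifs. These are shown because they show which of the searched promoters hold CArG boxes and which hold TGACG cores alone. Capitals mark CArG boxes and TGACG cores on either strand. The EGR1 window is chr5:138465229-138465528 on the plus strand, the NR4A3 window is chr9:99821635-99821934 on the plus strand, and the EGR2 window is chr10:62816317-62816616 on the minus strand, at 1 of 3 starts annotated for EGR2.
EGR1: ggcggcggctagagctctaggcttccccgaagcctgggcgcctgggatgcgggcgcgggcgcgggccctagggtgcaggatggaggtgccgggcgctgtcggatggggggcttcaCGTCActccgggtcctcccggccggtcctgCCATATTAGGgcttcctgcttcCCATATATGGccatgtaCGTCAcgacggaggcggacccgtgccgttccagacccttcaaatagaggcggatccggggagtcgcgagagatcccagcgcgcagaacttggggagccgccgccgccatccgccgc
EGR2: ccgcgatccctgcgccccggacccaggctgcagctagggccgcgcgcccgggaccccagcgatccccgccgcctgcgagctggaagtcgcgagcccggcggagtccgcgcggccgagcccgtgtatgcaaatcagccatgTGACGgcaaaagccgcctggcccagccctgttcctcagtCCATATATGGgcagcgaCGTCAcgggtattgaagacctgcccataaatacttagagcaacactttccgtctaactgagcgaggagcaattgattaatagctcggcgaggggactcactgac
NR4A3: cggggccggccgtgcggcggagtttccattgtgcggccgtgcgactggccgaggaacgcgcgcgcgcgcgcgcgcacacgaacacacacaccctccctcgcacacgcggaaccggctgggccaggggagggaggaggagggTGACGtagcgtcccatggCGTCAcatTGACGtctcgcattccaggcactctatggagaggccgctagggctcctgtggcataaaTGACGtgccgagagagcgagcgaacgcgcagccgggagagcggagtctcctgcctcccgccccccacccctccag

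The EGR1 promoter held 2 CArG boxes, beginning 105 and 83 bases before the start, and 2 TGACG cores, 135 and 66 bases before it. The EGR2 window held 1 CArG box at 71 bases and 2 cores at 110 and 54 bases before the start. The NR4A3 promoter held no CArG box and 4 cores, at 109, 91, 83 and 25 bases. Among 35116 promoter windows of the same length, 1.29% held a CArG box and 24.6% a TGACG core, while 1.85% held the full TGACGTCA, 0.795% the EGR site and 1.22% the NBRE. The letters of these 5 motifs were in neither of the 2 NR4A1 windows nor in the other EGR2 windows. The NR4A1 windows were chr12:52022582-52022881 and chr12:52037465-52037764, in a gene that runs to 52059503. No other NR4A1 start was searched, so this absence holds for those windows only. A match is a description of the sequence and not a measured site.

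The bulk values are TPM, transcript abundance corrected for gene length and scaled to a fixed library total, so levels can be compared between genes. Macrophage markers were present in every group (12 of 12 markers with a mean of at least 1 TPM, CD68, CD14 and CSF1R among them), with a summed level of 6375 to 8540 TPM in 3D day 12 libraries and 6661 to 6919 TPM in 2D libraries. Depth could not be read from TPM. The E. coli libraries stood apart: 7954 to 8103 genes reached 1 TPM in them, against 11862 to 13257 in all other libraries, mitochondrial RNA took 17.2% to 25.2% against 4.24% to 10.9%, and their replicate correlation was 0.435, against 0.852 to 0.95 within the other groups. A set of 3 genes named after genomic clones took 24.1% to 32.3% of the TPM in the FBS day 19 libraries, 12.8% to 21.3% in day 19 libraries without FBS, 5.55% to 10.5% in 3D day 12 libraries and 0.373% to 0.516% in 2D libraries. The median change of all genes tested, which moves with such scaling, was -0.21 on the log2 scale for 3D against 2D and -0.04 after median-ratio scaling, and 0.18 and -0.08 for day 16 against day 12. It was 0.16 and 0.00 for FBS at day 23, 0.04 and -0.09 for day 19 against day 12, -0.11 and 0.00 when day 19 was set against day 16, 0.18 and -0.07 for SP6A and 0.09 and -0.15 for SP14. The changes of members called below were larger than these shifts in size.

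Over the 11 groups the members spanned very different ranges. EGR1 was the most steadily present: it was above 9 TPM in every library, from 9.01 to 507 TPM, and its highest group mean was 34.7 times its lowest. EGR2 was also found in every library, from 2.35 to 505 TPM, with a ratio of 183. EGR3 ranged from 0.14 to 218 TPM and was at or above 1 TPM in 26 of 32 libraries. The NR4A genes reached 0 in some libraries: NR4A1 was at 0 in 3 libraries, NR4A2 in 1 and NR4A3 in 5, while their highest libraries stood at 183, 129 and 95.3 TPM. NR4A3 had the lowest median level, 0.995 TPM, and EGR1 the highest, 82.3 TPM.

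**Figure D1:**
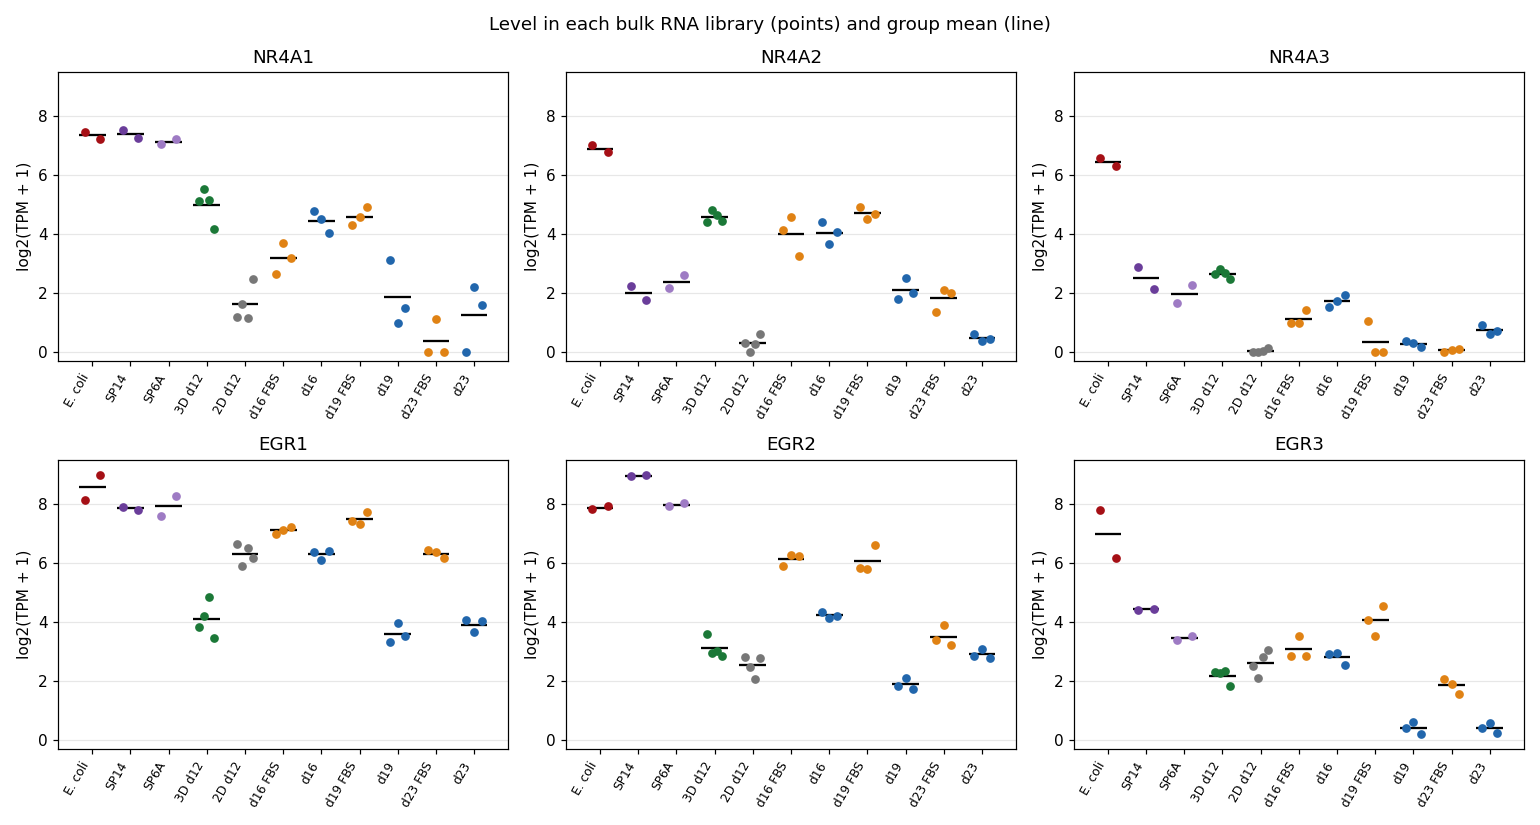
Level of each gene in each bulk RNA library as log2(TPM + 1), with 1 panel a gene. Points are libraries and black lines are group means of 2 to 4 libraries. E. coli libraries are high in every panel, SP14 and SP6A libraries lie near them for NR4A1 and far below them for NR4A2 and NR4A3, and the 2D libraries are near 0 for NR4A2 and NR4A3 but not for EGR1.

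The order of the groups differed from gene to gene. For NR4A1 the order ran SP14 (mean 167 TPM), E. coli (164 TPM) and SP6A (140 TPM), with a gap to 3D day 12 (32.8 TPM), and the libraries of SP14 and E. coli overlapped. After median-ratio scaling E. coli (186 TPM) stood above SP14 (144 TPM). For NR4A2 the E. coli group (119 TPM) stood alone, followed by FBS day 19 (25.2 TPM), 3D day 12 (23.1 TPM), FBS day 16 (16.03 TPM) and day 16 without FBS (15.95 TPM), each overlapping its neighbour. For NR4A3 the E. coli group (87.2 TPM) was followed by 3D day 12 (5.34 TPM), SP14 (4.95 TPM) and SP6A (3.04 TPM), again with overlap between neighbours after the first gap. The E. coli group thus led for NR4A2 and NR4A3 and overlapped the leading SP14 group for NR4A1.

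Among the EGR genes, EGR1 was led by E. coli (393 TPM), SP6A (248 TPM) and SP14 (229 TPM), which overlapped in turn, and then by FBS day 19 (180 TPM) and FBS day 16 (137 TPM), which did not. EGR2 was highest in SP14 (496 TPM), and SP6A (250 TPM) and E. coli (232 TPM) were separate from it and from each other, although after median-ratio scaling E. coli (268 TPM) stood above SP6A (214 TPM). EGR3 was highest in E. coli (144 TPM), although its libraries lay at 218 and 70.0 TPM, and SP14 (20.5 TPM) and FBS day 19 (16.3 TPM) overlapped below it. At the other end, EGR1, EGR2 and EGR3 had their lowest group means in day 19 culture without FBS, at 11.3, 2.72 and 0.33 TPM, while NR4A2 and NR4A3 had theirs in 2D culture, at 0.245 and 0.035 TPM, and NR4A1 had its lowest in FBS day 23, at 0.40 TPM. Each of these 6 lowest groups overlapped with the next one up: day 23 without FBS for NR4A1, NR4A2, EGR1 and EGR3, 2D culture for EGR2 and FBS day 23 for NR4A3.

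The first comparison asked how macrophages made in 3D differed from those made in 2D at day 12. The 3 NR4A genes were much higher in 3D and EGR1 was lower, while EGR2 and EGR3 were not called. NR4A1 had 33.8, 45.7, 34.4 and 17.2 TPM in 3D libraries, against 1.30, 2.11, 1.25 and 4.57 TPM in 2D libraries. NR4A2 had 20.5, 27.02, 24.3 and 20.8 TPM in 3D libraries, against 0.25, 0, 0.21 and 0.52 TPM in 2D libraries. NR4A3 had 5.32, 6.04, 5.47 and 4.53 TPM in 3D libraries, against 0, 0, 0.04 and 0.10 TPM in 2D libraries. For each of these genes every 3D library lay above every 2D library. EGR1 ran the other way, with 13.2, 17.3, 27.9 and 9.97 TPM in 3D libraries, against 99.2, 57.9, 90.2 and 70.1 TPM in 2D libraries, also without overlap.

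On the log2(TPM + 1) scale, which understates the change of low genes, NR4A2 rose by 4.28 (SE 0.185, adjusted p = 1.15e-05), NR4A1 by 3.38 (SE 0.375, adjusted p = 0.000469) and NR4A3 by 2.61 (SE 0.148, adjusted p = 3.02e-05), by limma with Benjamini-Hochberg adjustment over 13131 genes, and EGR1 fell by 2.21 (SE 0.318, adjusted p = 0.00130). So 3 of 6 members rose and 1 fell, where 13.0% of all genes tested rose and 24.7% fell (1710 and 3249 genes, or 2387 and 2538 after median-ratio scaling). All 6 passed the filter of a mean of at least 1 TPM, NR4A2 and NR4A3 only through their 3D libraries. EGR2 had 11.2, 6.78, 7.11 and 6.20 TPM in 3D libraries, against 5.98, 4.58, 3.14 and 5.82 TPM in 2D libraries, narrowly without overlap, and did not pass the threshold (log2 change 0.58, adjusted p = 0.0912), although it did after median-ratio scaling (0.76, adjusted p = 0.0400). EGR3 had 3.89, 3.78, 4.05 and 2.56 TPM in 3D libraries, against 4.73, 3.24, 6.01 and 7.37 TPM in 2D libraries, and the groups overlapped (log2 change -0.44, 95% interval -0.99 to 0.11, adjusted p = 0.184).

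Other immediate early genes were mixed in the same way: of 26 tested, 13 rose, 5 fell and 8 did not pass, with a median log2 change of 0.60, beside -0.21 over all genes. DUSP1, a phosphatase that acts on MAP kinases, rose (275 TPM in 3D, 14.6 TPM in 2D, log2 change 4.13), as did ATF3 (31.9 TPM in 3D, 1.74 TPM in 2D, 3.63) and the phosphatase gene DUSP2 (216 TPM in 3D, 42.8 TPM in 2D, 2.25). JUND, a subunit of AP-1, fell (10.5 TPM in 3D, 127 TPM in 2D, -3.51). All 10 Toll-like receptor response genes rose, with a median log2 change of 4.04, and their summed level was 6510 to 7259 TPM in 3D libraries, against 466 to 609 TPM in 2D libraries. Of these, the cytokine gene IL1B had 1107 TPM in 3D and 58.4 TPM in 2D, and the chemokine gene CCL3 had 2136 TPM in 3D and 146 TPM in 2D.

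Of 4 partners and corepressors tested, NAB2 fell (7.70 TPM in 3D, 19.1 TPM in 2D, log2 change -1.22) beside EGR1, and so did RXRB (5.14 TPM in 3D, 17.0 TPM in 2D, -1.57), a retinoid receptor. NAB1 and RXRA did not pass the threshold. Of 16 upstream transcription factors, SRF, CRTC1 and MEF2C were among 5 that fell (log2 changes -1.08, -2.93 and -0.97) and CREM was the 1 that rose (60.4 TPM in 3D, 18.9 TPM in 2D, 1.69). CREM is a CREB family gene that cyclic AMP itself induces. Heat shock genes that cells induce during dissociation also moved, with 5 of 10 higher and 1 lower and a summed level of 1867 to 2095 TPM in 3D libraries, against 1157 to 1233 TPM in 2D libraries.

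Markers of other cell types moved with this comparison. Granulocyte markers (5 of 5 tested fell) summed to 34.4 to 155 TPM in 3D libraries, where ELANE, LTF and CAMP were at 0, against 1435 to 2796 TPM in 2D libraries, where none was at 0. Megakaryocyte markers (7 of 7 fell) summed to 13.6 to 39.6 TPM in 3D libraries, where GP1BA was at 0, against 691 to 1209 TPM in 2D libraries. Erythroid markers (3 of 8 fell) summed to 27.7 to 1719 TPM in 3D libraries and 3427 to 4397 TPM in 2D libraries, and fibroblast or stroma markers (3 of 5 rose) to 4.57 to 74.8 TPM in 3D libraries and 0.72 to 1.38 TPM in 2D libraries, with DCN, LUM and PDGFRA at 0 in 2D. Their part in the members' changes was not tested. In bulk RNA, fewer cells of a type and less RNA per cell cannot be told apart.

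In 3D culture without FBS the members went different ways between days 12 and 16, and all 6 stood lower at day 19 than at day 16. The comparisons with day 12 share the same 4 day 12 libraries. At day 16, EGR1 had 81.5, 67.3 and 83.2 TPM, against 13.2, 17.3, 27.9 and 9.97 TPM at day 12, and EGR2 had 19.3, 16.6 and 17.4 TPM, against 11.2, 6.78, 7.11 and 6.20 TPM. Neither gene's groups overlapped, and EGR1 rose by 2.20 (SE 0.285, adjusted p = 1.06e-05) and EGR2 by 1.12 (SE 0.236, adjusted p = 0.00185) on the log2 scale. NR4A3 fell by 0.91 (adjusted p = 0.0161), with 1.89, 2.37 and 2.88 TPM at day 16, and without day 16 replicate 1 that change was -0.80 (adjusted p = 0.0859), and with a pseudocount of 0.1 its adjusted p was 0.225. NR4A1, NR4A2 and EGR3 did not pass (log2 changes -0.56, -0.53 and 0.62). By limma NR4A2 did pass after median-ratio scaling (-0.87, adjusted p = 0.0352) and EGR3 with array weights (0.57, adjusted p = 0.0250). So 2 of 6 members rose and 1 fell, where 10.3% of all genes rose and 6.25% fell (1382 and 837 genes, or 762 and 1426 after median-ratio scaling).

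The values at days 19 and 16 were as follows. EGR1 had 9.01, 14.5 and 10.4 TPM at day 19, against 81.5, 67.3 and 83.2 TPM at day 16, and EGR2 had 2.53, 3.27 and 2.35 TPM at day 19, against 19.3, 16.6 and 17.4 TPM at day 16. EGR3 had 0.31, 0.54 and 0.14 TPM at day 19, against 6.55, 6.72 and 4.77 TPM at day 16. NR4A1 had 7.63, 0.99 and 1.81 TPM at day 19, against 26.8, 21.6 and 15.3 TPM at day 16. The groups did not overlap for any of the 6. NR4A2 had 2.52, 4.69 and 3.01 TPM at day 19, against 20.4, 11.6 and 15.8 TPM at day 16, and NR4A3 had 0.29, 0.23 and 0.12 TPM at day 19, against 1.89, 2.37 and 2.88 TPM at day 16.

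All 6 members fell in this comparison by limma with Benjamini-Hochberg adjustment over 13384 genes, where 0.336% of all genes fell and 0.344% rose (45 and 46 genes, or 25 and 58 after median-ratio scaling). The comparison of day 19 with day 16 was added after the values were seen. The log2 changes were -2.69 for EGR1 (SE 0.305, adjusted p = 0.000100), -2.40 for EGR3 (SE 0.331, adjusted p = 0.000605), -2.34 for EGR2 (SE 0.252, adjusted p = 8.28e-05), -2.58 for NR4A1 (SE 0.526, adjusted p = 0.0206), -1.94 for NR4A2 (SE 0.306, adjusted p = 0.00243) and -1.47 for NR4A3 (SE 0.273, adjusted p = 0.00982). Of 27 other immediate early genes tested, 4 fell and none rose: BTG2 (41.7 TPM at day 19, 173 TPM at day 16, log2 change -2.05), DUSP1 (-1.88), JUNB (-1.33) and CSRNP1 (-1.06). The Toll-like receptor response genes CCL3 and CXCL8 also fell, with log2 changes of -0.89 and -1.58, and 0 of 10 heat shock genes and 0 of 16 upstream factors were called.

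The fall at day 19 was not equally firm for every member. NR4A1 did not pass without day 19 replicate 2 (log2 change -2.14, adjusted p = 0.126), without day 19 replicate 3 (-2.39, 0.108), without day 16 replicate 1 (-2.40, 0.113) or without day 16 replicate 2 (-2.55, 0.0833), and NR4A3 did not pass without day 19 replicate 3 (-1.41, 0.0572) or without day 16 replicate 3 (-1.37, 0.0619). With a pseudocount of 5, EGR3 (-1.04, adjusted p = 0.0504) and NR4A3 (-0.50, 0.106) did not pass by limma. With a pseudocount of 0.1, NR4A1 did not pass (-3.04, 0.336). When the 6 libraries of days 19 and 16 were fitted alone, 3 of 6 members and 9 of all genes were called. The members lost in that fit were NR4A1 (adjusted p = 0.184), NR4A2 (0.0934) and NR4A3 (0.0853).

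Relative to day 12, 5 of 6 members were lower at day 19, where 5.39% of all genes fell and 6.37% rose (722 and 853 genes, or 1112 and 671 after median-ratio scaling and 564 and 1180 without the clone genes): NR4A1 by 3.13, NR4A2 by 2.47, NR4A3 by 2.38, EGR3 by 1.78 and EGR2 by 1.22 on the log2 scale (adjusted p between 1.25e-06 and 0.00118). With a pseudocount of 5, EGR3 did not pass (adjusted p = 0.0690). EGR1 was not called (-0.49, 95% interval -1.08 to 0.11, adjusted p = 0.334). At day 23, 4 of 6 were lower, where 15.1% of all genes fell and 10.5% rose (2027 and 1400 genes, or 1603 and 1753 without the clone genes). NR4A2 had 0.52, 0.31 and 0.38 TPM at day 23, a log2 change of -4.10 (SE 0.286, adjusted p = 1.63e-09), and NR4A1 had 0, 3.68 and 2.00 TPM, a change of -3.73 (adjusted p = 7.85e-06). NR4A3 fell by 1.91 (adjusted p = 9.52e-06) and EGR3 by 1.77 (adjusted p = 0.000207). EGR1 (15.8, 11.5 and 15.2 TPM) and EGR2 (6.26, 7.54 and 5.86 TPM) at day 23 overlapped the day 12 libraries and were not called. Of the 27 other immediate early genes, 14 fell and 1 rose at day 19, and 12 fell and 3 rose at day 23, both against day 12.

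**Figure D2:**
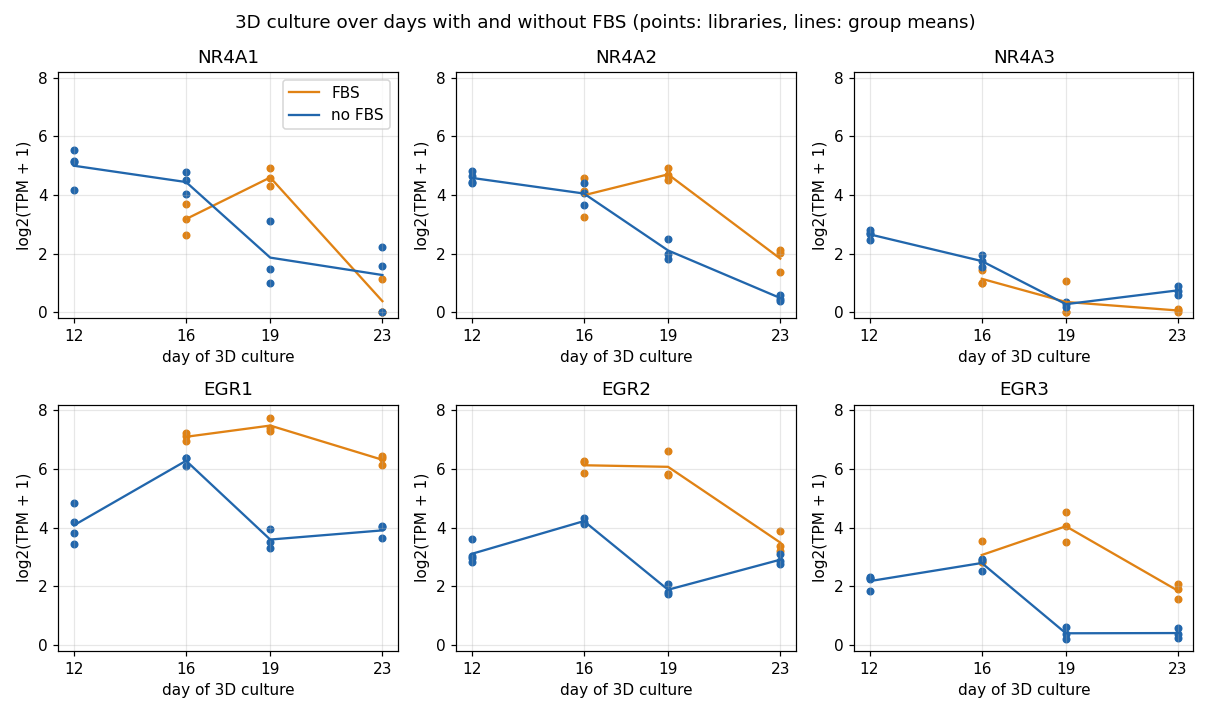
Level of each gene in 3D culture as log2(TPM + 1) against the day of culture, with and without FBS. Points are libraries and lines join group means. Without FBS all 6 genes drop between days 16 and 19. With FBS the day 19 libraries of NR4A1, NR4A2, EGR1, EGR2 and EGR3 stay high and the levels of these 5 genes drop by day 23, that of EGR1 least on this scale.

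FBS cultures were compared with cultures without FBS at each day. At day 16, EGR2 had 58.1, 76.4 and 74.4 TPM with FBS, against 19.3, 16.6 and 17.4 TPM without FBS. EGR2 rose by 1.90 (SE 0.252, adjusted p = 1.92e-05), the only 1 of 6 members called, where 7.96% of all genes rose and 10.1% fell. EGR1 had 124, 138 and 148 TPM with FBS, against 81.5, 67.3 and 83.2 TPM without FBS, with no overlap, and its log2 change of 0.82 did not pass (adjusted p = 0.0679), although it did after median-ratio scaling (0.92, adjusted p = 0.0445). NR4A1 had 5.25, 12.0 and 8.14 TPM with FBS, against 26.8, 21.6 and 15.3 TPM without FBS, also without overlap, with a log2 change of -1.26 (95% interval -2.35 to -0.17, adjusted p = 0.105). NR4A2, NR4A3 and EGR3 had log2 changes of -0.06, -0.61 and 0.27 and were not called, and the sign for NR4A2 turned to 0.04 under median-ratio scaling.

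At day 19 the FBS libraries were higher for 5 of 6 members. EGR1 had 170, 157 and 213 TPM with FBS, against 9.01, 14.5 and 10.4 TPM without FBS. EGR2 had 55.5, 54.9 and 96.7 TPM with FBS, against 2.53, 3.27 and 2.35 TPM without FBS. EGR3 had 15.9, 10.5 and 22.4 TPM with FBS, against 0.31, 0.54 and 0.14 TPM without FBS. Every FBS library exceeded every library without FBS for the 3 EGR genes. The same held for NR4A1, with 18.6, 23 and 29.2 TPM with FBS, against 7.63, 0.99 and 1.81 TPM without FBS, and for NR4A2, with 29.3, 21.9 and 24.5 TPM with FBS, against 2.52, 4.69 and 3.01 TPM without FBS. NR4A3 was near the bottom of the scale in both, at 1.08, 0 and 0 TPM with FBS and 0.29, 0.23 and 0.12 TPM without FBS.

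The log2 changes at day 19 were 4.19 for EGR2 (SE 0.252, adjusted p = 2.48e-10), 3.89 for EGR1 (SE 0.305, adjusted p = 1.47e-08), 3.65 for EGR3 (SE 0.331, adjusted p = 9.93e-08), 2.73 for NR4A1 (SE 0.526, adjusted p = 0.000627) and 2.60 for NR4A2 (SE 0.306, adjusted p = 3.17e-06). Of all genes tested, 12.8% rose and 12.2% fell (1712 and 1636 genes, or 2267 and 1362 without the clone genes). Of 27 other immediate early genes, 19 rose and none fell, with a median log2 change of 1.59, beside 0.00 over all genes. FOSB, an AP-1 subunit, had 220 TPM with FBS and 2.41 TPM without FBS (log2 change 6.12), KLF4, a zinc finger factor, 23.2 and 1.71 TPM in the same order (3.12), IER3 619 and 127 TPM (2.28) and CSRNP1 38.4 and 7.20 TPM (2.26). The corepressor gene NAB2 also rose, with 12.3 TPM with FBS and 2.68 TPM without FBS (1.89, adjusted p = 0.000499).

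Not every stimulus-type gene group moved up with FBS at day 19. Of 10 Toll-like receptor response genes, 3 rose and 4 fell: TNF was higher (179 TPM with FBS, 64.3 TPM without FBS, log2 change 1.47), while IL1B (34.1 TPM with FBS, 290 TPM without FBS, -3.09), TNFAIP3 (-2.16) and IL6 (-3.32) were lower. Of 10 heat shock genes, 6 fell and 1 rose, among them the mitochondrial chaperone genes HSPD1 (15.8 TPM with FBS, 75.7 TPM without FBS, -2.20) and HSPE1 (-2.39). Granulocyte markers summed to 2.03 to 12.6 TPM with FBS and 4.62 to 9.54 TPM without FBS, with MPO, ELANE, PRTN3, LTF and CAMP at 0 in both, and macrophage markers to 10413 to 11652 TPM with FBS and 10026 to 11535 TPM without FBS. All 8 fibroblast or stroma markers were at 0 in the FBS libraries.

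At day 23, 3 of 6 members were higher with FBS, where 8.87% of all genes rose and 4.86% fell (1187 and 651 genes, or 870 and 893 after median-ratio scaling). EGR1 had 85.9, 81.4 and 70.0 TPM with FBS, against 15.8, 11.5 and 15.2 TPM without FBS, a log2 change of 2.41 (SE 0.305, adjusted p = 1.11e-05). EGR3 had 3.20, 2.76 and 1.96 TPM with FBS, against 0.31, 0.50 and 0.19 TPM without FBS (1.44, adjusted p = 0.00486), and NR4A2 had 1.59, 3.32 and 3.02 TPM with FBS, against 0.52, 0.31 and 0.38 TPM without FBS (1.34, adjusted p = 0.00451). These groups did not overlap, but with a pseudocount of 5 in place of 1 neither EGR3 (0.52, adjusted p = 0.209) nor NR4A2 (0.49, adjusted p = 0.131) passed. EGR2 (9.42, 13.8 and 8.29 TPM with FBS, 6.26, 7.54 and 5.86 TPM without FBS) had a log2 change of 0.58 (adjusted p = 0.138). NR4A1 was at 0, 1.20 and 0 TPM with FBS and 0, 3.68 and 2.00 TPM without FBS, and NR4A3 at 0, 0.06 and 0.07 TPM with FBS and 0.88, 0.52 and 0.66 TPM without FBS, and neither was called. The NR4A3 groups did not overlap, with every library below 1 TPM. With a pseudocount of 0.1 limma called NR4A3 lower with FBS (log2 change -2.47, adjusted p = 0.0111).

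Averaged over the 3 days, 4 of 6 members were higher with FBS, where 18.6% of all genes rose and 15.7% fell: EGR1 by 2.37 (adjusted p = 1.55e-09), EGR2 by 2.23 (1.83e-10), EGR3 by 1.79 (3.15e-07) and NR4A2 by 1.29 (7.51e-06). NR4A3 had a change of -0.41 (adjusted p = 0.0512), which passed without FBS day 16 replicate 3 (-0.45, 0.0382), without day 16 replicate 1 (-0.44, 0.0478) and without FBS day 19 replicate 1 (-0.52, 0.00646). That change also passed by limma with a pseudocount of 0.1 (-1.27, 0.0103), after median-ratio scaling (-0.39, 0.0483) and without the E. coli libraries (-0.41, 0.0346). Whether the FBS effect depended on the day was tested as a difference between FBS effects. The FBS effect at day 19 exceeded that at day 16 for 5 of 6 members, where 0.276% of all genes had a larger and 0.134% a smaller effect at day 19 (37 and 18 genes, or 30 and 24 after median-ratio scaling). These differences were 4.0 for NR4A1 (SE 0.743, adjusted p = 0.0185), 3.38 for EGR3 (SE 0.469, adjusted p = 0.00222), 3.07 for EGR1 (SE 0.432, adjusted p = 0.00222), 2.65 for NR4A2 (SE 0.433, adjusted p = 0.00687) and 2.29 for EGR2 (SE 0.357, adjusted p = 0.0059). For NR4A1 the test did not pass without day 19 replicate 3 of the culture without FBS (3.81, adjusted p = 0.0522) or without its day 16 replicate 1 (3.82, adjusted p = 0.0549), nor with a pseudocount of 0.1 (adjusted p = 0.247). This contrast and that of day 19 with day 16 without FBS use the same day 16 and day 19 libraries without FBS, and both were added after the values were seen.

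Between days 23 and 16 the FBS effect differed for 3 members, where 7.00% of all genes had a larger and 3.13% a smaller effect at day 23 (937 and 419 genes, or 651 and 648 after median-ratio scaling). It was larger at day 23 for EGR1 (by 1.59, adjusted p = 0.0200) and NR4A2 (by 1.40, adjusted p = 0.0421) and smaller for EGR2 (-1.32, adjusted p = 0.0195). These calls were fragile: without day 23 replicate 2 of the culture without FBS 0 members were called (EGR1 1.46, adjusted p = 0.0541, and EGR2 -1.23, adjusted p = 0.0505), without FBS day 23 replicate 3 EGR2 was lost (-1.18, adjusted p = 0.0578), and NR4A2 was lost without any of 9 of the 12 libraries (1.03 to 1.48, adjusted p between 0.0534 and 0.120). After median-ratio scaling 1 member was called, EGR2. Within FBS, day 23 was lower than day 19 for 5 of 6 members, where 3.08% of all genes fell and 3.65% rose (412 and 489 genes, or 735 and 404 without the clone genes): NR4A1 by 4.22 (adjusted p = 1.97e-05), NR4A2 by 2.87 (2.92e-06), EGR2 by 2.58 (1.34e-06), EGR3 by 2.20 (0.000187) and EGR1 by 1.17 (0.0212). EGR1 did not pass without FBS day 23 replicate 2 (-1.19, adjusted p = 0.0562), FBS day 23 replicate 3 (-1.08, 0.0855) or FBS day 19 replicate 3 (-1.04, 0.0841). The comparison of FBS day 23 with FBS day 19 was added after the data were seen. Of 27 other immediate early genes 10 fell and none rose, led by FOSB (5.97 TPM at day 23, 220 TPM at day 19, log2 change -5.06).

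The SP14 and SP6A libraries split the NR4A family. Against 3D day 12, NR4A1 was higher and NR4A2 lower in both groups, beside higher levels of all 3 EGR genes. NR4A1 had 183 and 151 TPM in SP14 libraries and 131 and 148 TPM in SP6A libraries, against 33.8, 45.7, 34.4 and 17.2 TPM in 3D day 12 libraries. NR4A2 had 3.70 and 2.39 TPM in SP14 libraries and 3.47 and 5.12 TPM in SP6A libraries, against 20.5, 27.02, 24.3 and 20.8 TPM at day 12. In neither gene did the groups overlap with day 12. For NR4A3 the SP14 libraries overlapped with day 12 and the SP6A libraries lay below it, with 6.48 and 3.41 TPM in SP14 libraries, 2.18 and 3.90 TPM in SP6A libraries and 5.32, 6.04, 5.47 and 4.53 TPM at day 12.

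EGR2 in SP14 had the largest group mean of any member: EGR2 had 488 and 505 TPM in SP14 libraries and 241 and 258 TPM in SP6A libraries, against 11.2, 6.78, 7.11 and 6.20 TPM at day 12. EGR1 had 240 and 219 TPM in SP14 libraries and 193 and 304 TPM in SP6A libraries, against 13.2, 17.3, 27.9 and 9.97 TPM at day 12. EGR3 had 20.1 and 20.9 TPM in SP14 libraries and 9.49 and 10.6 TPM in SP6A libraries, against 3.89, 3.78, 4.05 and 2.56 TPM at day 12. None of these groups overlapped with day 12.

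In SP14, 4 of 6 members rose and 1 fell, where 18.4% of all genes rose and 13.0% fell (2457 and 1744 genes, or 1811 and 2378 after median-ratio scaling): EGR2 by 5.85 (SE 0.268, adjusted p = 9.00e-13), EGR1 by 3.76 (SE 0.324, adjusted p = 1.23e-08), NR4A1 by 2.38 (SE 0.558, adjusted p = 0.00212) and EGR3 by 2.25 (SE 0.352, adjusted p = 3.55e-05), with NR4A2 at -2.59 (SE 0.325, adjusted p = 2.23e-06) and NR4A3 at -0.14 (adjusted p = 0.778). In SP6A the same 4 rose and NR4A2 fell, where 17.1% of all genes rose and 10.8% fell (2290 and 1446 genes, or 1605 and 2118 after median-ratio scaling): EGR2 by 4.86 (adjusted p = 1.94e-11), EGR1 by 3.84 (1.22e-08), NR4A1 by 2.14 (0.0059) and EGR3 by 1.29 (0.00817), with NR4A2 at -2.20 (2.28e-05) and NR4A3 at -0.68 (0.0872). By limma NR4A3 was called lower in SP6A after median-ratio scaling (-0.96, adjusted p = 0.0117) and with array weights (-0.72, adjusted p = 0.00487). Without SP6A replicate 2, NR4A1 (2.05, adjusted p = 0.0669) and EGR3 (1.21, adjusted p = 0.0874) did not pass, and NR4A1 also missed the threshold with a pseudocount of 0.1 in SP6A (adjusted p = 0.176) and in SP14 (adjusted p = 0.118). Between SP14 and SP6A, 0 of 6 members and 0.0299% of all genes (4 genes) were called, although EGR2 had a log2 difference of 0.99 (95% interval 0.35 to 1.63, adjusted p = 0.700) and limma with array weights called EGR2 and EGR3.

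Other groups of genes also shifted in these libraries. In SP14, 10 of 27 other immediate early genes rose and 7 fell, and the counts were the same in SP6A. JUN, an AP-1 subunit, had 144 TPM in SP14 and 157 TPM in SP6A, against 5.82 TPM at day 12, and BTG2 had 631 TPM in SP14 and 434 TPM in SP6A, against 65.2 TPM at day 12. Of 10 Toll-like receptor response genes, 7 rose and 1 fell in SP14 and 8 rose in SP6A, and their summed level was 63519 to 66977 TPM in SP14, 40450 to 42774 TPM in SP6A and 6510 to 7259 TPM at day 12. RXRA, a heterodimer partner of NR4A1 and NR4A2, fell in both (6.65 TPM in SP14, 6.91 TPM in SP6A, 25.2 TPM at day 12), and CREM rose in both (191 TPM in SP14, 174 TPM in SP6A, 60.4 TPM at day 12). The labels do not say what SP14 and SP6A are, so day, treatment and handling cannot be told apart.

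All 6 members were higher in the E. coli libraries than in 3D culture without FBS, taken as the mean of days 12, 16, 19 and 23 because the labels give the E. coli libraries no day. NR4A3 had 95.3 and 79.2 TPM in E. coli libraries, against 0.12 to 6.04 TPM over the 13 libraries without FBS. NR4A2 had 129 and 108 TPM in E. coli libraries, against 0.31 to 27.02 TPM. NR4A1 had 177 and 150 TPM in E. coli libraries, against 0 to 45.7 TPM. For these 3 genes the E. coli libraries lay far above the highest library without FBS.

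The EGR genes showed the same separation. EGR1 had 279 and 507 TPM in E. coli libraries, against 9.01 to 83.2 TPM without FBS, EGR2 had 224 and 241 TPM, against 2.35 to 19.3 TPM, and EGR3 had 218 and 70.0 TPM, against 0.14 to 6.72 TPM. The log2 changes were 5.52 for EGR3 (SE 0.309, adjusted p = 3.34e-12), 5.10 for NR4A3 (SE 0.255, adjusted p = 5.71e-13), 4.83 for EGR2 (SE 0.235, adjusted p = 4.07e-13), 4.22 for NR4A1 (SE 0.489, adjusted p = 2.72e-07), 4.09 for EGR1 (SE 0.284, adjusted p = 1.06e-10) and 4.09 for NR4A2 (SE 0.285, adjusted p = 1.11e-10). Of all genes, 13.7% rose and 42.9% fell, and their median change was -0.84. The standard errors use a spread shared by the 28 libraries of 3D culture. They do not measure the spread between the 2 E. coli libraries, whose replicate correlation was 0.435 and whose EGR3 values lay far apart. With array weights in limma NR4A1 did not pass (4.30, adjusted p = 0.128), and 159 of all genes rose and 781 fell.

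Of 27 other immediate early genes, 22 rose and 4 fell, with a median log2 change of 2.54. IER3 had 1906 TPM in E. coli libraries and 186 TPM without FBS, PPP1R15A 733 and 64.2 TPM in the same order, and KLF6 1930 and 230 TPM. Of 10 Toll-like receptor response genes 9 rose, among them CCL4 (36810 TPM in E. coli libraries, 1249 TPM without FBS) and TNF (2853 and 107 TPM in the same order), and the summed level was 83196 to 94887 TPM in E. coli libraries. NAB2 rose by 3.07 (59.4 TPM in E. coli libraries, 5.83 TPM without FBS) and RXRA fell by 1.81 (4.65 and 19.3 TPM in the same order). Heat shock genes moved too: 6 of 10 rose and 1 fell, with HSPA1A at 1186 TPM in E. coli libraries and 34.8 TPM without FBS. Day, exposure, the smaller number of detected genes and the larger mitochondrial share of these libraries cannot be told apart.

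**Figure D3:**
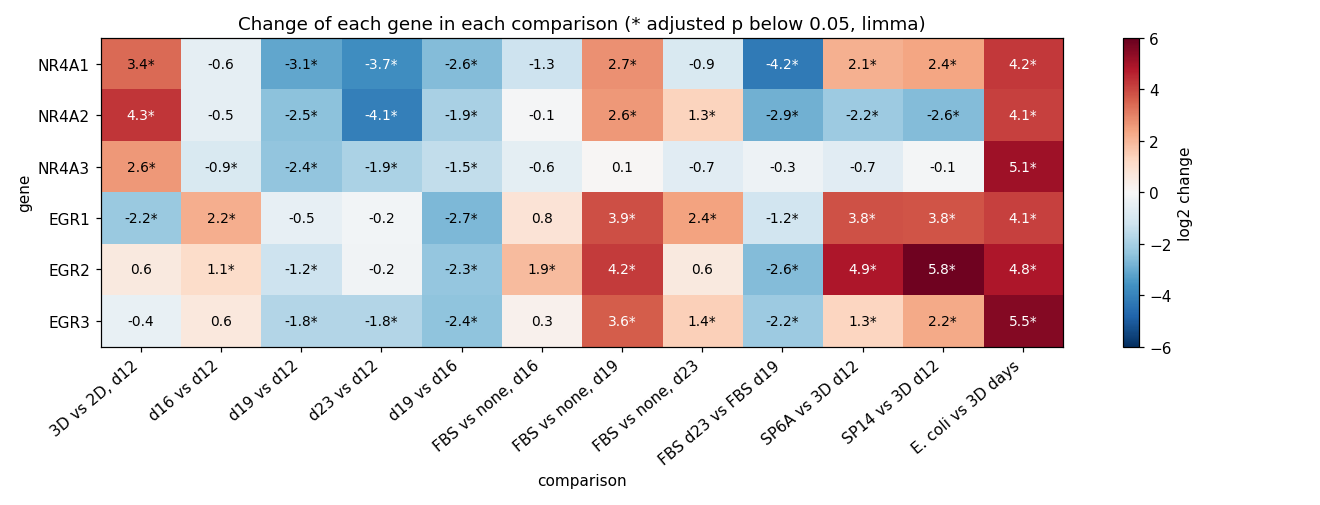
Log2 change on the log2(TPM + 1) scale of each gene (rows) in 12 comparisons (columns), each the first named group against the second. Colour and number give the change, and a star marks an adjusted p below 0.05 by limma. The columns for E. coli and for day 19 against day 16 have 1 direction for all 6 genes, while the columns for 3D against 2D, SP6A and SP14 hold called changes in both directions.

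The members were then set beside each other and beside all other genes by the root-mean-square distance between their group means of log2(TPM + 1) over the 11 groups, each gene centred on its own mean, among 8705 genes with a mean of at least 5 TPM. The closest pair of members was EGR1 and EGR3 (0.868) and the farthest NR4A2 and EGR2 (2.33). The nearest genes to NR4A1 were ATF3 (0.891), MAFF (1.09) and PTGER2 (1.14), and those to NR4A2 were DUSP1 (0.883), TIPARP (0.99) and BHLHE40 (1.06). NR4A3 was nearest to IFIT2 (0.674), HCAR2 (0.68) and OASL (0.701). EGR1 was nearest to SLC43A2 (0.749), AGPAT4-IT1 (0.80) and KCNE1 (0.819), EGR2 to MMP19 (0.819), MAFF (1.07) and CD300LB (1.10), and EGR3 to KDM6B (0.796), B3GNT5 (0.822) and REL (0.84). For scale, the members' own spread over the groups was 1.65 for EGR1 to 2.44 for NR4A1. These are descriptions over group means that share libraries, and MAFF was among the 3 nearest to both NR4A1 and EGR2.

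Single cells showed which cells of the 3D single-cell libraries held the RNA. After filters 6551 cells remained at day 7, 11292 at day 9 and 7592 at day 12, with median depths of 24179, 13032 and 16617 unique molecular identifiers (UMIs). Libraries shared 17 to 24 cell barcodes pairwise. The cells fell into 16 clusters, made without the 6 members and the 29 other immediate early genes among the variable genes, and 11 clusters were named from marker lists. Although the libraries are labelled macrophage, macrophage-like clusters held 2.37% of the cells at day 7, 3.00% at day 9 and 28.3% at day 12, and fibroblast or stroma-like clusters held 49.3% at day 12. Fibroblast or stroma markers were low in the bulk 3D day 12 libraries, as given above. Levels of single-cell clusters therefore cannot be read as the make-up of the bulk libraries. With 1 library a day there is no test, and the 95% intervals below are exact Poisson intervals that cover counting error only.

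Pooled over all cells, every member stood highest at day 12. At days 7, 9 and 12, NR4A3 had 8.06, 16.5 and 137 CPM (UMIs of the gene scaled to a fixed total per library), NR4A2 had 19.8, 20.8 and 92.3 CPM, and NR4A1 had 24.5, 26.6 and 69.3 CPM. EGR1 had 39.9, 80.2 and 191 CPM, EGR3 had 3.99, 4.92 and 32.3 CPM, and EGR2 had 0.824, 2.15 and 22.6 CPM. The day 12 library was processed with another Cell Ranger version, and the cell types differ between the days; their part in these levels was not tested.

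At day 12 all 6 genes were higher in cluster 15 than in cluster 1, the 2 macrophage-like clusters, and NR4A2 and NR4A3 were higher in cluster 15 than in any other named cluster. Cluster 15 (1431 cells at day 12, median 28892 UMIs) carried 11 of 12 macrophage markers and was led by chemokine and cytokine genes (CCL3L1, CCL4L2, CCL4, CCL3 and IL1B), and cluster 1 (716 cells, median 32132 UMIs) carried the same 11 markers and was led by KCNK13, RUBCNL and FGD2. NR4A3 had 347 CPM (342 to 353) in cluster 15, against 15.7 CPM (14.2 to 17.4) in cluster 1. NR4A2 had 252 CPM (248 to 257) in cluster 15, against 17.4 CPM (15.7 to 19.1) in cluster 1, and NR4A1 had 88.3 CPM (85.5 to 91.1), against 7.81 CPM (6.73 to 9.01). The EGR genes differed in the same direction, with EGR1 at 105 CPM (102 to 108) in cluster 15, against 27 CPM (25 to 29.2) in cluster 1, EGR2 at 45.0 CPM, against 3.13 CPM, and EGR3 at 73.4 CPM, against 4.93 CPM.

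Summed macrophage markers were at 5536 CPM in cluster 15 and 5814 CPM in cluster 1, the 29 other immediate early genes at 5709 CPM in cluster 15 and 1314 CPM in cluster 1, and the Toll-like receptor response genes, some of which lead cluster 15, at 11517 CPM in cluster 15 and 1063 CPM in cluster 1. The heat shock genes of dissociation ran the other way, at 3180 CPM in cluster 15 and 4590 CPM in cluster 1. After each cell was thinned to 3000 UMIs, 49.3% of cluster 15 cells had an NR4A2 UMI, 48.3% an NR4A3 UMI and 23.1% an NR4A1 UMI, against 4.40%, 3.41% and 1.70% of cluster 1 cells, where unthinned shares were 91.5%, 84.5% and 69.9% in cluster 15 and 20.4%, 11.7% and 14.9% in cluster 1. Low shares were also found in other cell types of the same library: after thinning, NR4A2, NR4A3 and NR4A1 UMIs were in 4.41%, 1.76% and 2.20% of erythroid-like cells (median 16383 UMIs) and in 1.45%, 1.45% and 0% (0 of 207, upper bound of the exact binomial interval 1.77%) of fibroblast or stroma-like cluster 12 cells (median 17581 UMIs). The cluster 1 shares of NR4A2 and NR4A1 were thus no higher than in erythroid-like cells and stood above those in cluster 12 with overlapping intervals. The NR4A3 share stood above both, also with overlapping intervals. Pooled levels of cluster 1 lay above those of erythroid-like cells for NR4A2 (10.9 CPM, 7.98 to 14.6) and NR4A3 (5.11 CPM, 3.16 to 7.81). They also lay above those of cluster 12 for NR4A2 (4.59 CPM, 2.76 to 7.17) and NR4A3 (5.32 CPM, 3.33 to 8.05). The pooled NR4A1 interval overlapped both. Whether cluster 1 stood above background was not tested. Of thinned cluster 15 cells, 27.1% held UMIs of at least 3 of the 6 members and 18.8% of none, against 0.426% and 85.2% of cluster 1 cells.

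**Figure D4:**
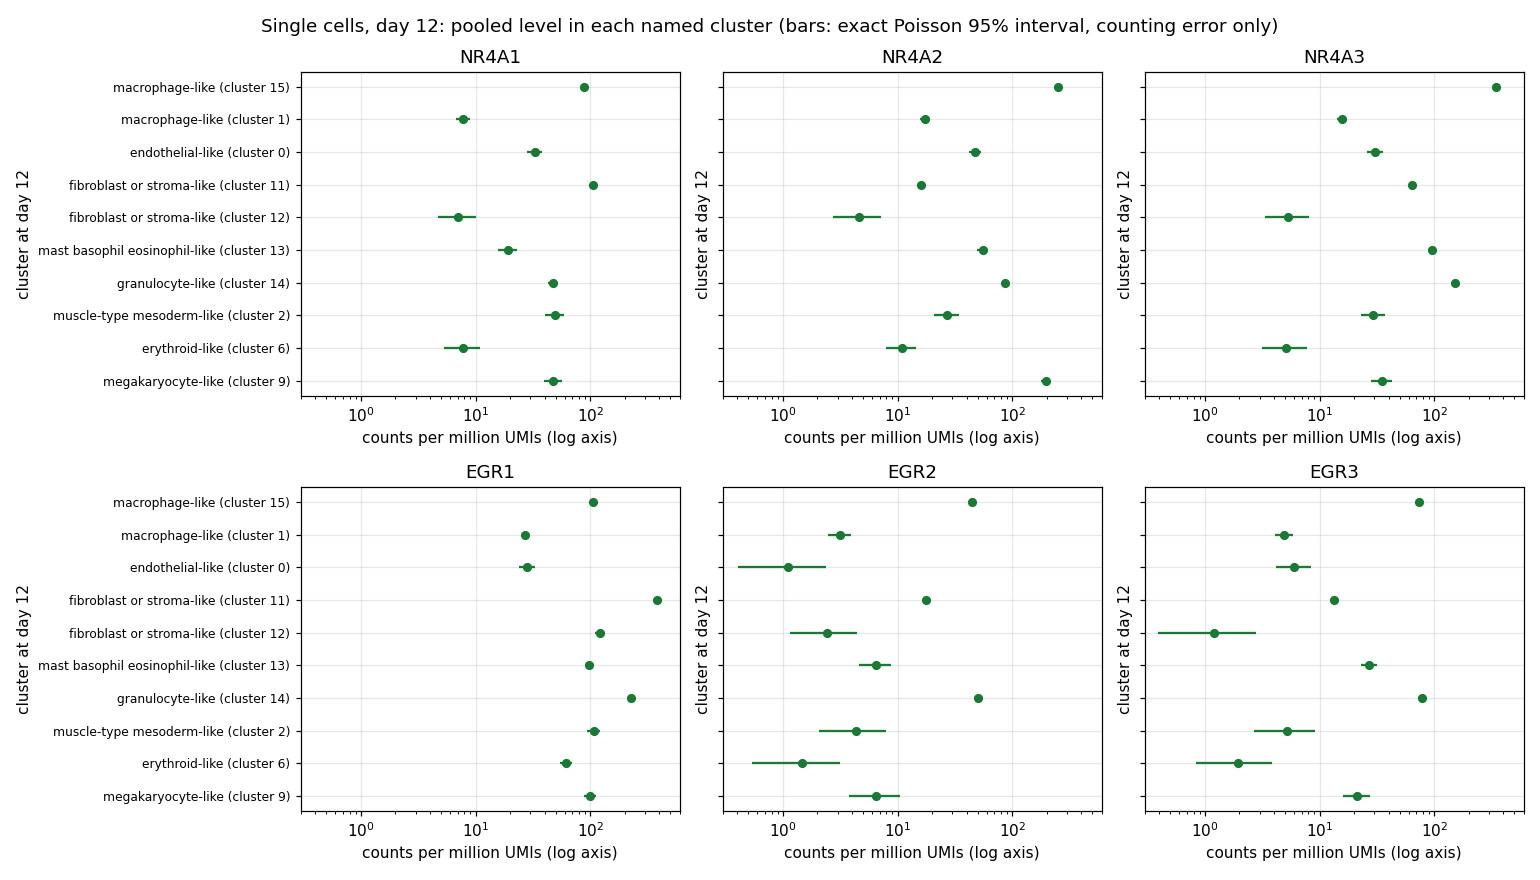
Pooled level of each gene in the named clusters of the day 12 single-cell library, in CPM on a log axis. Points are pooled values of 1 library and bars are exact Poisson 95% intervals, which cover counting error only. The macrophage-like cluster 15 is highest for NR4A2 and NR4A3, the fibroblast or stroma-like cluster 11 for NR4A1 and EGR1, and the granulocyte-like cluster 14 is level with or above cluster 15 for EGR2 and EGR3.

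In the day 12 library the RNA was not confined to macrophages, and members of the same family were placed differently. EGR1 was highest in fibroblast or stroma-like cluster 11, at 380 CPM (375 to 386) with a thinned share of 59.2%, and granulocyte-like cells (cluster 14) followed at 227 CPM (217 to 237). Among named clusters NR4A1 was also highest in cluster 11, at 106 CPM (104 to 109), beside 88.3 CPM in macrophage-like cluster 15, whereas NR4A2 was at 16 CPM (14.9 to 17.1) in cluster 11. Unnamed cluster 7 had a higher NR4A1 level at day 7, 174 CPM (141 to 212) from 97 UMIs. Megakaryocyte-like cells (cluster 9) had the next NR4A2 level after cluster 15 among named clusters, 196 CPM (179 to 213), but 34.7 CPM of NR4A3. Granulocyte-like cells had 153 CPM (145 to 162) of NR4A3, 50.5 CPM (46.0 to 55.4) of EGR2 and 78.0 CPM (72.4 to 84.0) of EGR3, so their EGR2 interval overlapped that of cluster 15 (43.0 to 47.0 CPM) and their EGR3 interval that of cluster 15 (70.9 to 76.0 CPM). Mast, basophil or eosinophil-like cells had 96.2 CPM of NR4A3 and 55.1 CPM of NR4A2. Low values were found in the smaller stroma-like cluster 12 (NR4A1 7.01 CPM, NR4A2 4.59 CPM, NR4A3 5.32 CPM) and in erythroid-like cells (7.78, 10.9 and 5.11 CPM of the same genes), although both had EGR1, at 122 and 61.5 CPM. Clusters 11 to 15 came almost wholly from the day 12 library, so cell type and library cannot be told apart for them.

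Cluster 1 was the macrophage-like cluster found at all 3 days, with 155 cells at day 7, 326 at day 9 and 716 at day 12. Most macrophage-like cells of day 12 were in cluster 15 instead (1431 cells, against 13 at day 9). Cluster 15 had 347 CPM of NR4A3 and 252 CPM of NR4A2 at day 12. The values below are thus those of cluster 1 and not of all macrophage-like cells of a day. Every member stood highest in cluster 1 at day 9. The day 9 interval overlapped that of day 7 for NR4A1 and that of day 12 for EGR2. At days 7, 9 and 12, NR4A3 had 36.8, 106 and 15.7 CPM, NR4A2 had 45.8, 81.3 and 17.4 CPM, NR4A1 had 11.9, 17.8 and 7.81 CPM, and EGR3 had 1.21, 19.8 and 4.93 CPM. EGR1 had 17.9, 45.7 and 27 CPM. EGR2 was scarce throughout, at 0.603, 3.93 and 3.13 CPM, from 3, 35 and 75 UMIs. Granulocyte markers summed to 9.65, 545 and 118 CPM in this cluster at the 3 days, and their part in these levels was not tested.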

How the data were processed

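Bulk RNA libraries were made with a SMART-seq2 protocol from TRIzol RNA and single cells with 10x Genomics kits, per the labels' protocols. The submitters' processing notes name Trim Galore 0.4.4, HISAT2, HTSeq 0.11.1, DESeq2 and Cell Ranger, and the builds hg38 and GRCh38, with no role given. The authors deposited the bulk values as TPM, 1 column a library, and every column was matched to a library by name (0 columns unmatched). The deposited single-cell matrices hold UMI counts, made with Cell Ranger 7.1.0 (days 7 and 9) and 7.0.0 (day 12), per the file headers. The chromatin samples of the series were not used here.

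TPM values were tested as log2(TPM + 1) with limma 3.58.1 in R 4.3.3, among genes with a mean of at least 1 TPM, and p-values were adjusted by Benjamini-Hochberg, with calls made below 0.05. The 8 day 12 libraries gave the 3D against 2D test and the 28 libraries of 3D culture, fitted together, gave all others. No pair of libraries held identical values, and 0 of 10 housekeeping genes were at 0 in any library. Cells with at least 1000 UMIs, at least 500 genes and at most 15% mitochondrial UMIs were kept, doublets called by Scrublet (216, 435 and 369 at days 7, 9 and 12) were removed, and cells were clustered with scanpy 1.11.5 on 2000 variable genes and 30 principal components at Leiden resolution 0.5. A cluster was named where at least 4 markers of a list reached 20 CPM and a 2-fold excess and at least 1 was among its top 10 genes by fold, or, with none there, where 75% of the list did so, a rule chosen after the clusters were seen. Floors, where given, are 3 counts, and intervals are at 95%.

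The members and the gene lists were chosen with earlier results of these data known. Named list genes are up to 4 called genes a list with the lowest adjusted p. Promoters come from RefSeq (GRCh38.p14). Results were recomputed with other pseudocounts, without the filter on low values, with median-ratio scaling, with array weights, with a replicate block, in fits of the compared groups only, and without each library. Leaving out 3 clone genes, leaving out the E. coli libraries and 3 comparisons (the FBS effect at day 19 less that at day 16, day 19 against day 16, and FBS day 23 against FBS day 19) were added after the data were seen. The fits were tested on simulated data. The values of 1 marker gene are not reported here.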

Additional observations from a re-analysis of the deposited data

Results flagged for a closer look

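The FBS effect differed between days for several members by the test of that difference (limma, Benjamini-Hochberg adjustment over 13384 genes). It was larger at day 19 than at day 16 by 4.0 for NR4A1, 3.38 for EGR3, 3.07 for EGR1, 2.65 for NR4A2 and 2.29 for EGR2 on the log2 scale, in a contrast added after the values were seen. NR4A1 missed the call without either of 2 libraries and with a pseudocount of 0.1, and 3 of these 5 were called in the fit of the compared groups only. Between days 23 and 16 the difference was 1.59 for EGR1 and 1.40 for NR4A2, larger at day 23, and -1.32 for EGR2, smaller at day 23. Of these calls 0 were left without day 23 replicate 2 of the culture without FBS, NR4A2 was lost without any 1 of 9 of the 12 libraries, and after median-ratio scaling only EGR2 was called. In groups of 4 libraries, 12 sets of member levels were examined for a library far from the others, and 0 stood out.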

How the results depend on the processing

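Of 96 comparisons of a member, 64 were called. Across 1116 alternatives of these, 1067 kept the direction and the call, 49 lost the call and 0 reversed, and 46 called comparisons kept their call under every alternative run. The cause of the changes below was not tested.

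The number of members called with FBS at day 16 was 1, and 3 with a pseudocount of 5, and 2 with median-ratio scaling, without the 3 clone genes and in the fit without E. coli libraries. At day 23 it was 3, and 1 with a pseudocount of 5. For the FBS effect at day 23 less that at day 16 it was 3, 1 with median-ratio scaling, and 0 to 3 without each library in turn. For the FBS effect at day 19 less that at day 16 it was 5, and 3 in the fit of the compared groups only, and for day 19 against day 16 it was 6, and 3 in that fit. For SP14 against SP6A it was 0, and 2 with array weights (EGR2 0.99, adjusted p = 0.00129, and EGR3 0.96, adjusted p = 0.00185). For SP6A it was 3 to 5 without each library. The labels state no pairing of same-numbered libraries, and the main fits used none. Correlations of their deviations from the group means ran from -0.122 to 0.0503, which cannot show whether they shared a culture. With the replicate block, FBS at day 16 had 2 members called, EGR1 among them (0.82, adjusted p = 0.0499), and NR4A2 missed the call for day 23 less day 16 (1.40, adjusted p = 0.0591).

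Values that changed sign were all uncalled. With a pseudocount of 0.1 they were -0.42 for NR4A3 under FBS at day 19, -0.04 for NR4A1 under FBS averaged over days and -0.62 for NR4A1 for FBS at day 23 less day 16, and with a pseudocount of 5 that last contrast was 0.07 for NR4A3. NR4A2 under FBS at day 16 was 0.04 with median-ratio scaling and 0.02 without the clone genes. Without each library in turn, values ranged from -0.38 to 0.08 (EGR1, day 23 against day 12), -0.35 to 0.31 (NR4A2, FBS at day 16), -0.28 to 0.25 (NR4A3, FBS at day 19), -0.02 to 0.40 (NR4A1, FBS averaged), -0.27 to 0.85 (NR4A1) and -0.19 to 0.06 (NR4A3, both for FBS at day 23 less day 16), -0.47 to 0.06 (NR4A3, FBS day 23 against FBS day 19), -0.52 to 0.24 (NR4A3, SP14) and -0.41 to 0.24 (EGR1, SP14 against SP6A).

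Counts over all genes moved more. With array weights the E. coli comparison called 940 genes in place of 7576, SP6A 7423 in place of 3736, SP14 7445 in place of 4201, SP14 against SP6A 743 in place of 4, day 16 4444 in place of 2219, day 19 4016 in place of 1575, FBS at day 23 2842 in place of 1838, its difference from day 16 2350 in place of 1356, that of day 19 167 in place of 55, and day 19 against day 16 605 in place of 91. Without E. coli libraries these last 6 were 3435, 2567, 2973, 2520, 242 and 209, with 3672 in place of 2417 for FBS at day 16 and 1699 in place of 901 for FBS day 23 against day 19. Fits of the compared groups only gave 3762 (day 16), 28 (FBS effect, day 19 less day 16), 9 (day 19 against day 16), 251 (FBS day 23 against day 19), 5974 (SP6A), 6346 (SP14) and 0 (SP14 against SP6A). The FBS effect at day 19 less day 16 gave 35, 131, 125 and 89 genes with pseudocounts of 0.1 and 5, no filter and no clone genes, day 19 against day 16 gave 60 and 147 with those pseudocounts, SP14 against SP6A 22 (pseudocount 5) and 544 (no filter), and SP6A 6468 (no filter). Without each library the counts ran from 1510 to 1963 (FBS at day 16), 16 to 56 (day 19 less day 16), 36 to 63 (day 19 against day 16), 587 to 758 (FBS day 23 against day 19), 2003 to 3438 (SP6A), 2568 to 3920 (SP14) and 4 to 8 (SP14 against SP6A). Of 54 single-cell levels under other filters 53 stayed inside their counting interval. Of 66 bulk group means after median-ratio scaling 53 stayed within 1 SD and 13 did not, 11 of the 13 in the E. coli, SP14 and SP6A groups. TPM gives no depth, so the counting error of low bulk values such as NR4A3 is unknown.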
